A study of Mus musculus with 8 samples.

Results

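The segments of the T cell receptor (TCR) beta locus were compared between sorted CD4+ CD8+ thymocytes of the diabetes-prone strain NOD/ShiLtJ (NOD) and of C57BL/6J mice. Members were all genes on chromosome 6 whose GENCODE M21 symbol begins with Trbv, Trbd, Trbj or Trbc. They were 53 of the 53465 genes listed in each count table: 35 V, 2 D, 14 J and 2 constant (C) genes. Each strain had 4 RNA-seq libraries, titled by B and T numbers whose meaning is not given. Libraries sharing a B number were summed, which gave 2 samples for NOD and 2 for C57BL/6J. The labels name no drug, age or sex, and do not tie the B numbers to different mice. The p-values thus reflect the spread between the 2 samples of a strain, pooled in part over all tested genes by the test used. That spread may be only technical.

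The beta chain is built in thymocytes by joining 1 V, 1 D and 1 J segment, a reaction started by the RAG recombinase, and the joined exon is then spliced to a constant gene. The locus holds a long array of V segments followed by a pair of D-J-C clusters, so that the first cluster supplies Trbd1, the Trbj1 segments and Trbc1, and the second supplies Trbd2, the Trbj2 segments and Trbc2. Trbv31 lies beyond the second cluster on the opposite strand. CD4+ CD8+ cells have normally already assembled a beta chain and passed the checkpoint that tests it with the pre-TCR alpha chain.

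The members called between strains were J segments, and the sequences on which the results turn are given here from GENCODE M21 (build GRCm38, plus strand, 5′ to 3′). They are reference sequences, and the NOD alleles of the segments could not be read. Whether those alleles differ, and whether that alters the NOD counts of any segment, was not tested. Capitals mark the codons for the phenylalanine-glycine-any-glycine motif of J regions, found as TTTGGNNNNGGN or TTCGGNNNNGGN. The first 4 were higher in all NOD libraries, both in level and in share of the J reads, and the other 4 are shown for contrast.
Trbj1-1 (chr6:41533864-41533911): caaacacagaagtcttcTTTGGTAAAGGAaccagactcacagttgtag
Trbj2-1 (chr6:41542754-41542803): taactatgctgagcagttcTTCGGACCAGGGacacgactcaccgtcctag
Trbj2-4 (chr6:41543362-41543410): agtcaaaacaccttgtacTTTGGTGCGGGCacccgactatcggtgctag
Trbj2-5 (chr6:41543453-41543501): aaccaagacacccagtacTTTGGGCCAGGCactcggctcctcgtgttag
Trbj1-4 (chr6:41534811-41534861): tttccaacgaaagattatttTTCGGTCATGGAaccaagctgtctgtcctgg
Trbj2-2 (chr6:41542957-41543007): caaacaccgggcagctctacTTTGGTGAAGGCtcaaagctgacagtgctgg
Trbj2-7 (chr6:41543810-41543856): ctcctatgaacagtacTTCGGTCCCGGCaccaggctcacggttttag
Trbj2-6 (chr6:41543598-41543645): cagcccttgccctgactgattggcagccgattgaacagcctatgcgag

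The motif was present on the sense strand of 11 of the 14 Trbj segments and of 45 of the 66 other annotated TCR J segments, and on the antisense strand of none of either. It was not found in Trbj1-6, Trbj1-7 or Trbj2-6, and GENCODE lists the last of these as a pseudogene. The J segments have an annotated exon length of 46 to 54 bases, little longer than the reads of 38 and 37 bases. No window of 37 bases in any Trbj segment occurred in the annotated transcripts of another gene.

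The libraries held 23.5 to 30.4 M reads in genes for NOD and 8.53 to 15.7 M for C57BL/6J. Of the 9 listed markers of double-positive thymocytes, Cd4 averaged 1312 CPM in NOD and 1228 CPM in C57BL/6J, and Cd8a 1684 CPM in NOD and 1536 CPM in C57BL/6J (CPM, counts per M reads in genes). Cd8b1, which encodes the partner chain of Cd8a, averaged 1091 CPM in NOD and 1698 CPM in C57BL/6J (log2 fold change -0.68, adjusted p = 0.0911 in edgeR), and the log2 fold changes of Rag1, Rag2 and Dntt were also below 0. None of the 9 was called by edgeR, 4 had an unadjusted p under 0.05, and DESeq2 called 1. Over all 17291 tested genes, edgeR called 3.68% in either direction and 13.1% had an unadjusted p under 0.05. DESeq2 called 937 of the 17291. Reads that HTSeq assigned to more than 1 gene made up 2.54% to 5.81% of the reads in genes plus such reads in NOD libraries and 1.503% to 1.94% in C57BL/6J libraries. A read pair with mates in 2 segments could fall in that class, depending on a counting mode that is not given in the sources used here. Its part in the J, V and C values was not tested. Of the 53 members, 5 V pseudogenes had no read in any library and 42 members passed the filter on low counts: all D, J and C genes, all 22 V genes and 2 V pseudogenes.

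Most of the locus was at a like level in both strains. The 53 members together held 1661 and 1498 CPM in NOD samples 1 and 2, against 1418 and 1331 CPM in C57BL/6J samples 1 and 2, and the NOD mean was 1.15 times the C57BL/6J mean. The C genes took 58.5% and 58.6% of these reads in the NOD samples and 60.4% and 58.8% in the C57BL/6J samples. The V genes took 35.3% and 35.1% in NOD and 35.9% and 34.9% in C57BL/6J. The ratio of V to C reads was 0.604 and 0.598 in NOD and 0.595 and 0.594 in C57BL/6J. The share of the J reads varied more, and not only between strains. The J segments took 6.00% and 6.11% of the reads in NOD samples 1 and 2, but 3.40% and 5.98% in C57BL/6J samples 1 and 2, so that C57BL/6J sample 1 stood apart.

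In edgeR's quasi-likelihood test with Benjamini-Hochberg adjustment over all 17291 tested genes, 2 of the 42 tested members were higher in NOD at an adjusted p under 0.05, where 1.91% of all tested genes were called higher. None was called lower, against 1.78% of all tested genes (3.68% in either direction), and 1 was lower at an unadjusted p under 0.05. DESeq2 called 4 members higher, where it called 2.77% of all tested genes higher, and 0 lower. Both members called by edgeR are J segments of the second cluster, Trbj2-4 and Trbj2-5. The median log2 fold change (NOD over C57BL/6J) was 0.12 over the tested members and 0.02 over all tested genes. The strains' libraries did not overlap for 12 members, 11 with all 4 NOD libraries above and 1 with all 4 below. Over all tested genes those shares were 9.43% and 7.17%.

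**Figure D1:**
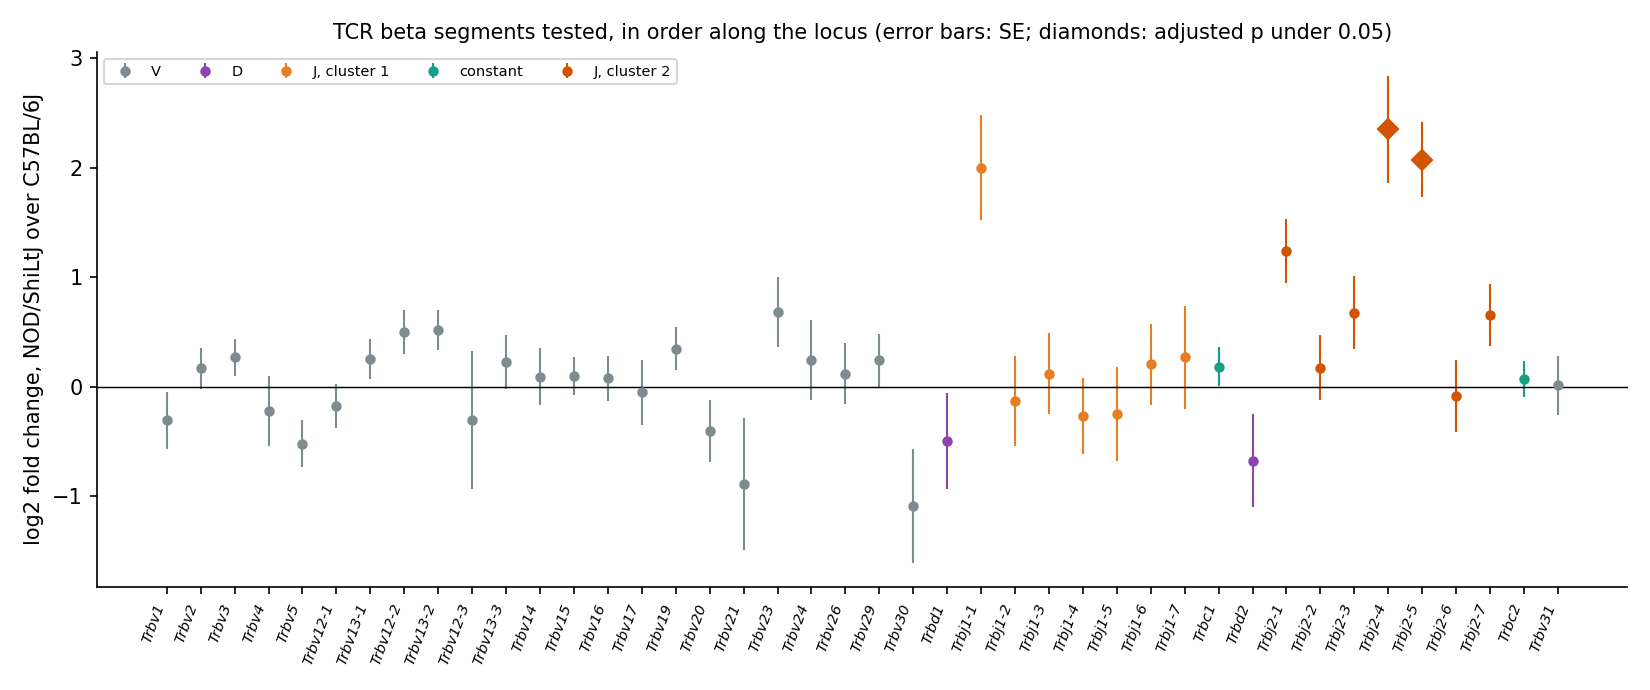
Log2 fold change (NOD/ShiLtJ over C57BL/6J, y axis) of the 42 tested segments in their order along the locus (x axis), coloured by segment class, with the standard error as bars and diamonds for an adjusted p under 0.05. The V genes lie between -1.09 and 0.68, while Trbj1-1, Trbj2-1, Trbj2-4 and Trbj2-5 stand at 1.23 to 2.35.

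The constant genes, one of which every complete beta chain transcript carries, did not pass the test. Trbc1 (ENSMUSG00000076490, chr6:41538218-41539881) stood at 532 and 453 CPM in NOD and at 443 and 398 CPM in C57BL/6J, with a log2 fold change of 0.18 ± 0.18 (standard error, SE; adjusted p = 0.798 in edgeR). Trbc2 (ENSMUSG00000076498, chr6:41546730-41548352) stood at 439 and 425 CPM in NOD and at 413 and 384 CPM in C57BL/6J, with a log2 fold change of 0.07 ± 0.17 (adjusted p = 0.926 in edgeR). Both NOD samples were above both C57BL/6J samples for each gene, but the libraries overlapped. The ratio of Trbc1 to Trbc2 reads was 1.21 and 1.07 in NOD and 1.07 and 1.04 in C57BL/6J. The copies share much of their sequence: 43.5% of the 37-base windows of Trbc1 transcripts and 47.1% of those of Trbc2 occur in the other gene. How reads from these stretches were divided is not given in the sources used here, so the ratio is uncertain.

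Trbj2-4 showed the widest difference of the locus. Its reads came to 5.69 and 4.69 CPM in NOD samples 1 and 2, against 0.546 and 1.44 CPM in C57BL/6J samples 1 and 2. The 4 NOD libraries held 126 to 141 reads each and the 4 C57BL/6J libraries 3 to 24, so the groups did not overlap. The log2 fold change was 2.35 ± 0.49 SE (adjusted p = 0.0324 in edgeR), a ratio of mean levels of 5.22.

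Trbj2-5, the next segment downstream, stood at 9.78 CPM in both NOD samples, against 1.85 and 2.68 CPM in C57BL/6J samples 1 and 2. Its log2 fold change was 2.07 ± 0.34 SE (adjusted p = 0.0107 in edgeR), a ratio of mean levels of 4.32. Every NOD library, at 8.43 to 11.4 CPM, lay above every C57BL/6J library, at 1.16 to 2.93 CPM. Without C57BL/6J sample 1 no member was called, with adjusted p-values of 0.209 for Trbj2-4 and 0.104 for Trbj2-5, while the log2 fold changes were 1.84 and 1.87. Over all alternatives, the adjusted p ran from 2.84e-05 to 0.209 for Trbj2-4 and from 2.66e-07 to 0.113 for Trbj2-5. Trbj2-4 was also not called with T1 libraries only (adjusted p = 0.0704 in edgeR) or T2 libraries only (0.0637), and Trbj2-5 was not called with T2 libraries only (0.050002). Without NOD sample 2, 4 members were called higher, Trbj1-1 and Trbj2-1 besides these, where the share of all tested genes called higher was 3.88%.

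Trbj1-1 and Trbj2-1, the first J segments of their clusters, differed in the same direction without passing the test. Trbj1-1 stood at 3.47 and 3.00 CPM in NOD and at 0.504 and 1.07 CPM in C57BL/6J, with a log2 fold change of 2.00 ± 0.48 SE (adjusted p = 0.0589 in edgeR). Trbj2-1 stood at 13.0 and 11.6 CPM in NOD and at 4.45 and 5.74 CPM in C57BL/6J, with a log2 fold change of 1.23 ± 0.29 SE (adjusted p = 0.0558 in edgeR). For both, all 4 NOD libraries lay above all 4 C57BL/6J libraries. They are the other 2 members that DESeq2 called, with adjusted p-values of 0.00585 for Trbj1-1 and 0.00177 for Trbj2-1. Over all alternatives the adjusted p ran from 0.00327 to 0.408 for Trbj1-1 and from 0.00177 to 0.524 for Trbj2-1.

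The other segments of the second cluster differed less or overlapped. Trbj2-7, the last J segment and the one with the highest level per length in NOD (283 CPM per kb), stood at 13.0 and 13.6 CPM in NOD and at 6.64 and 9.91 CPM in C57BL/6J (adjusted p = 0.372 in edgeR). Trbj2-3 stood at 10.2 and 8.70 CPM in NOD and at 4.28 and 7.26 CPM in C57BL/6J (adjusted p = 0.462 in edgeR). For both genes every NOD library was above every C57BL/6J library. Trbj2-2 stood at 11.4 and 10.9 CPM in NOD and at 7.31 and 12.01 CPM in C57BL/6J. The pseudogene Trbj2-6 stood at 6.54 and 5.86 CPM in NOD and at 5.21 and 7.64 CPM in C57BL/6J. For these last segments the C57BL/6J samples lay on either side of both NOD samples.

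In the first cluster, Trbj1-2 to Trbj1-7 showed no separation of the strains. Their log2 fold changes lay between -0.27 and 0.27, and none passed the test. Trbj1-4, the highest of them per length in NOD (104 CPM per kb), stood at 5.76 and 4.83 CPM in NOD and at 4.79 and 7.68 CPM in C57BL/6J. Trbj1-2 stood at 3.64 and 3.09 CPM in NOD and at 2.48 and 4.75 CPM in C57BL/6J. For Trbj1-2, Trbj1-4, Trbj1-5, Trbj1-6 and Trbj1-7 both NOD samples fell between the C57BL/6J samples. Summed over the cluster, the Trbj1 reads came to 30.1 and 26.3 CPM in NOD and to 17.9 and 32.9 CPM in C57BL/6J, with overlapping samples. The Trbj2 reads came to 69.5 and 65.2 CPM in NOD and to 30.3 and 46.7 CPM in C57BL/6J, without overlap. The ratio of Trbj2 to Trbj1 reads was 2.31 and 2.48 in NOD and 1.69 and 1.42 in C57BL/6J.

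**Figure D2:**
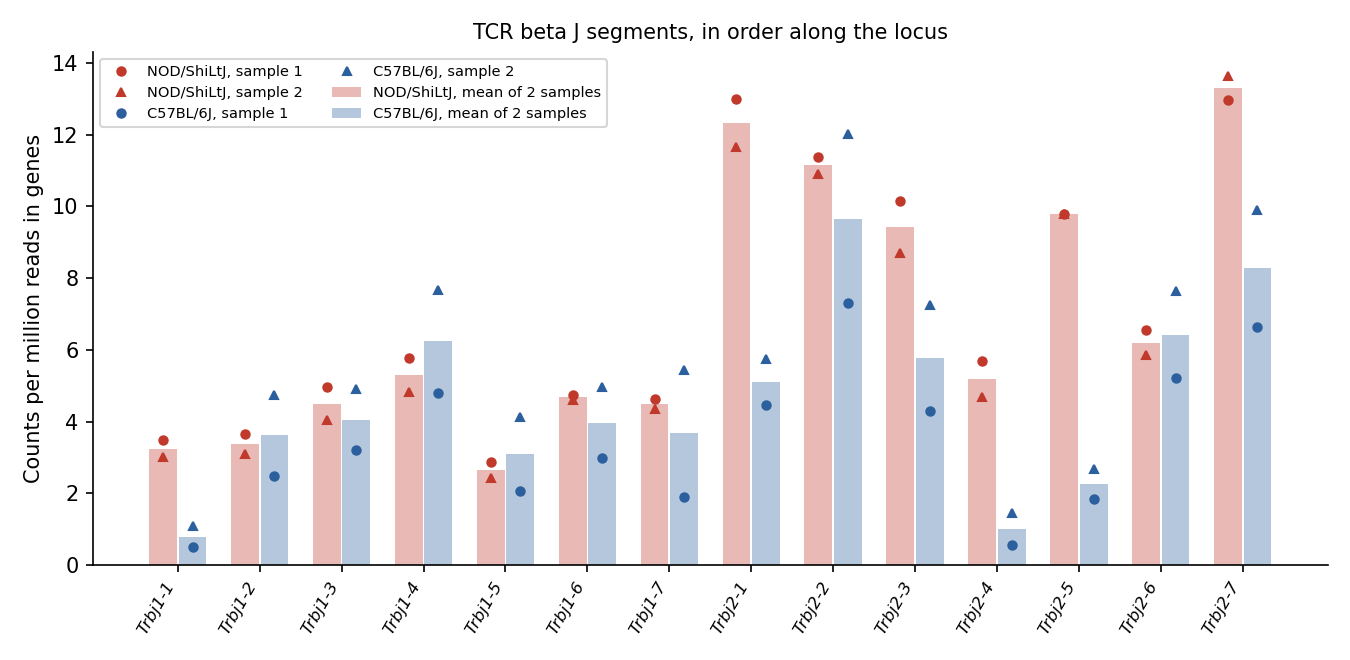
Level of each J segment in CPM (y axis), in order along the locus (x axis). Red marks are the 2 NOD/ShiLtJ samples and blue marks the 2 C57BL/6J samples, with bars at the mean of each strain. C57BL/6J sample 1 (blue circles) is below C57BL/6J sample 2 (blue triangles) for all 14 segments.

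C57BL/6J sample 1 was the lower of the C57BL/6J samples for all 14 J segments, at 0.347 to 0.776 times the level of sample 2. The NOD samples differed by much less, with sample 1 at 0.951 to 1.23 times the level of sample 2. For that reason the share of each segment among all J reads of its own sample was also examined, a choice made after seeing the data. Trbj2-5 made up 9.82% and 10.7% of the J reads in NOD and 3.84% and 3.37% in C57BL/6J. Trbj2-4 made up 5.72% and 5.12% in NOD and 1.13% and 1.81% in C57BL/6J. Trbj1-1 made up 3.48% and 3.28% in NOD and 1.05% and 1.35% in C57BL/6J. Trbj2-1 made up 13.0% and 12.7% in NOD and 9.24% and 7.21% in C57BL/6J.

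The same 4 segments were the ones whose share was higher in every NOD library than in every C57BL/6J library. The share was lower in every NOD library for 4 others, Trbj1-2, Trbj1-4, Trbj1-5 and Trbj2-6. The portion of all tested genes apart on this scale is not given here, so these counts are a description only. Trbj1-4 made up 5.78% and 5.28% of the J reads in NOD and 9.94% and 9.64% in C57BL/6J, and Trbj2-6 made up 6.57% and 6.40% in NOD and 10.8% and 9.59% in C57BL/6J. Shares add up to the whole, so a higher share of some segments lowers the others. With each sample scaled to its J reads, edgeR called Trbj2-4 (log2 fold change 1.85, adjusted p = 0.0330; without C57BL/6J sample 1, 1.58 and 0.205), where 1.38% of all tested genes were called higher. Trbj2-5 did not pass (1.51, adjusted p = 0.0745). As a description over the 14 segments, Spearman's rho of the shares was 0.978 between the NOD samples, 0.943 between the C57BL/6J samples and 0.635 to 0.670 between samples of different strains. Segments of 1 sample share its library and depth.

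**Figure D3:**
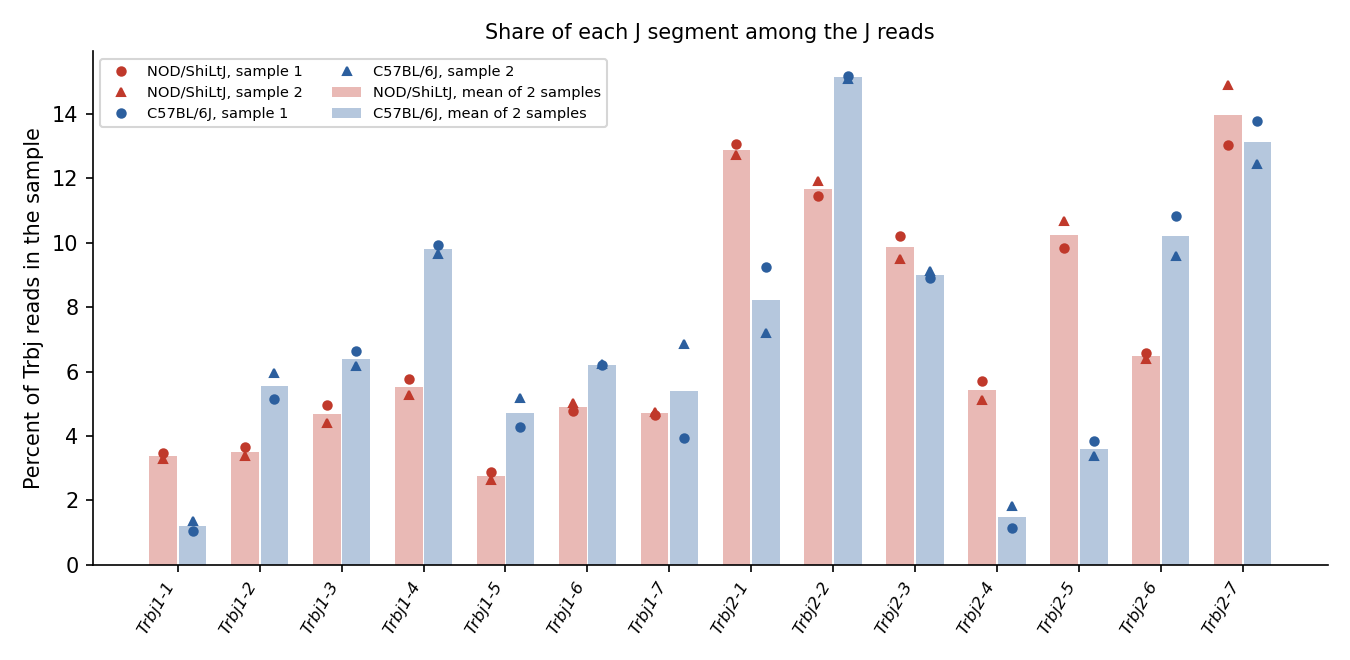
Share of each J segment among all Trbj reads of a sample, in percent (y axis), in order along the locus (x axis). Red marks are the 2 NOD/ShiLtJ samples, blue marks the 2 C57BL/6J samples, and bars the mean of each strain. Trbj1-1, Trbj2-1, Trbj2-4 and Trbj2-5 are higher in NOD, and Trbj1-2, Trbj1-4, Trbj1-5 and Trbj2-6 are lower.

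The D segments are so short that every read counted there extends into flanking sequence. They are shown because their length limits what the counts mean, and positions are on the plus strand of GRCm38.
Trbd1 (chr6:41533201-41533212): gggacagggggc
Trbd2 (chr6:41542163-41542176): gggactgggggggc

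Neither D segment passed the test. Trbd1 stood at 1.97 and 1.64 CPM in NOD and at 1.76 and 3.22 CPM in C57BL/6J (log2 fold change -0.50 ± 0.44 SE, adjusted p = 0.761 in edgeR), with overlapping samples. Trbd2 stood at 1.27 and 1.37 CPM in NOD and at 2.23 and 1.86 CPM in C57BL/6J (log2 fold change -0.68 ± 0.43 SE, adjusted p = 0.617 in edgeR). Both NOD samples were below both C57BL/6J samples for Trbd2, but the libraries overlapped.

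The V segments, which encode most of the variable domain of the beta chain, showed no called difference. Of the 24 tested, 0 were called in either direction by edgeR or by DESeq2, and 3 had an unadjusted p under 0.05 in edgeR, where 13.1% of all tested genes did. Their log2 fold changes ran from -1.09 to 0.68 with a median of 0.09. The libraries did not overlap for 6, with NOD above for Trbv3, Trbv12-2, Trbv13-2, Trbv19 and Trbv23 and below for Trbv5. Over all tested genes, 9.43% had all 4 NOD libraries above and 7.17% had all 4 below.

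Per kilobase of exon, the level of the 22 V genes ranged over 134-fold, from 1.23 CPM per kb for Trbv21 to 164 CPM per kb for Trbv15 (mean over the 4 samples). Behind Trbv15 came Trbv13-2 at 137, Trbv13-1 at 129, Trbv16 at 128 and Trbv3 at 116 CPM per kb. The 10 V genes with the highest CPM held 77.7% and 77.6% of the V reads in NOD and 75.5% and 76.5% in C57BL/6J. The 13 V pseudogenes together held 5.19 and 4.29 CPM in NOD and 4.03 and 4.46 CPM in C57BL/6J, and most of these reads fell in Trbv24, at 4.08 ± 0.788 CPM in NOD and 3.35 ± 0.283 CPM in C57BL/6J (SD, n = 2 samples each).

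Among these 10 V genes, Trbv13-2 had the widest gain in level. It stood at 58.2 and 52.8 CPM in NOD and at 39.4 and 35.8 CPM in C57BL/6J (log2 fold change 0.52 ± 0.18 SE, adjusted p = 0.225 in edgeR). Trbv12-2, its neighbour in the locus, stood at 36.0 and 29.4 CPM in NOD and at 21.5 and 23.4 CPM in C57BL/6J (0.50 ± 0.20, adjusted p = 0.323 in edgeR). Trbv5 moved the other way, at 18.8 and 16.7 CPM in NOD and 25.6 and 23.9 CPM in C57BL/6J (-0.52 ± 0.21, adjusted p = 0.323 in edgeR). None of these passed the test, although NOD and C57BL/6J libraries did not overlap. Trbv5 lies within the long noncoding RNA gene 5830405F06Rik on the same strand, and 78.3% of its 37-base windows occur in that transcript, so its count is uncertain.

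The remaining V genes among these 10 differed less, and only Trbv3 and Trbv19 of them had no overlap of libraries. Trbv15 stood at 67.2 and 60.4 CPM in NOD and at 60.1 and 55.7 CPM in C57BL/6J (adjusted p = 0.901 in edgeR). Trbv16 stood at 59.8 and 46.5 CPM in NOD and at 52.9 and 44.6 CPM in C57BL/6J (adjusted p = 0.934 in edgeR). Trbv3 stood at 59.4 and 57.3 CPM in NOD and at 48.2 and 45.9 CPM in C57BL/6J (adjusted p = 0.631 in edgeR). Of the others, Trbv13-1, Trbv19, Trbv2 and Trbv12-1 had adjusted p-values of 0.550 to 0.834.

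V usage, the share of each V segment among the V reads of a sample, was tested with the same model after scaling each sample to its Trbv total. No V segment passed, where 4.92% of all tested genes were called on that scale in either direction. At an unadjusted p under 0.05 there were 2 V segments, both lower in NOD, and DESeq2 on the same scale called 0. On this scale the J segments Trbj1-1 (log2 fold change 1.82, adjusted p = 0.0416), Trbj2-4 (2.16, adjusted p = 0.00999) and Trbj2-5 (1.91, adjusted p = 0.00424) were called higher by edgeR, and none of the 3 was called without C57BL/6J sample 1. The gap in mean share between strains ran from -1.89 percentage points for Trbv5 to 2.26 for Trbv13-2. Trbv13-2 made up 9.92% and 10.1% of the V reads in NOD and 7.73% and 7.72% in C57BL/6J (log2 fold change of the share 0.37, adjusted p = 0.669 in edgeR). Trbv5 made up 3.21% and 3.18% in NOD and 5.03% and 5.15% in C57BL/6J (-0.67, adjusted p = 0.237 in edgeR).

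In share, NOD and C57BL/6J libraries were apart for 8 V segments, none of which passed the usage test. The portion of all tested genes apart on this scale is not given here, so the count is a description only. Trbv12-2, Trbv13-2, Trbv19 and Trbv23 were higher in every NOD library, and Trbv1, Trbv5, Trbv12-1 and Trbv20 were lower. Trbv12-1 made up 5.95% and 5.58% of the V reads in NOD and 7.33% and 7.11% in C57BL/6J, while its relative Trbv12-2 made up 6.13% and 5.59% in NOD and 4.23% and 5.04% in C57BL/6J. Of the 37-base windows, 2.27% of those of Trbv12-1 and 7.16% of those of Trbv12-2 occur in another gene of the family. For Trbv13-2, 5.92% of the windows occur in Trbv13-3. As a description over the 22 V genes, Spearman's rho of the shares was 0.984 between the NOD samples, 0.995 between the C57BL/6J samples and 0.956 to 0.967 between samples of different strains. The genes of 1 sample share its library and depth.

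**Figure D4:**
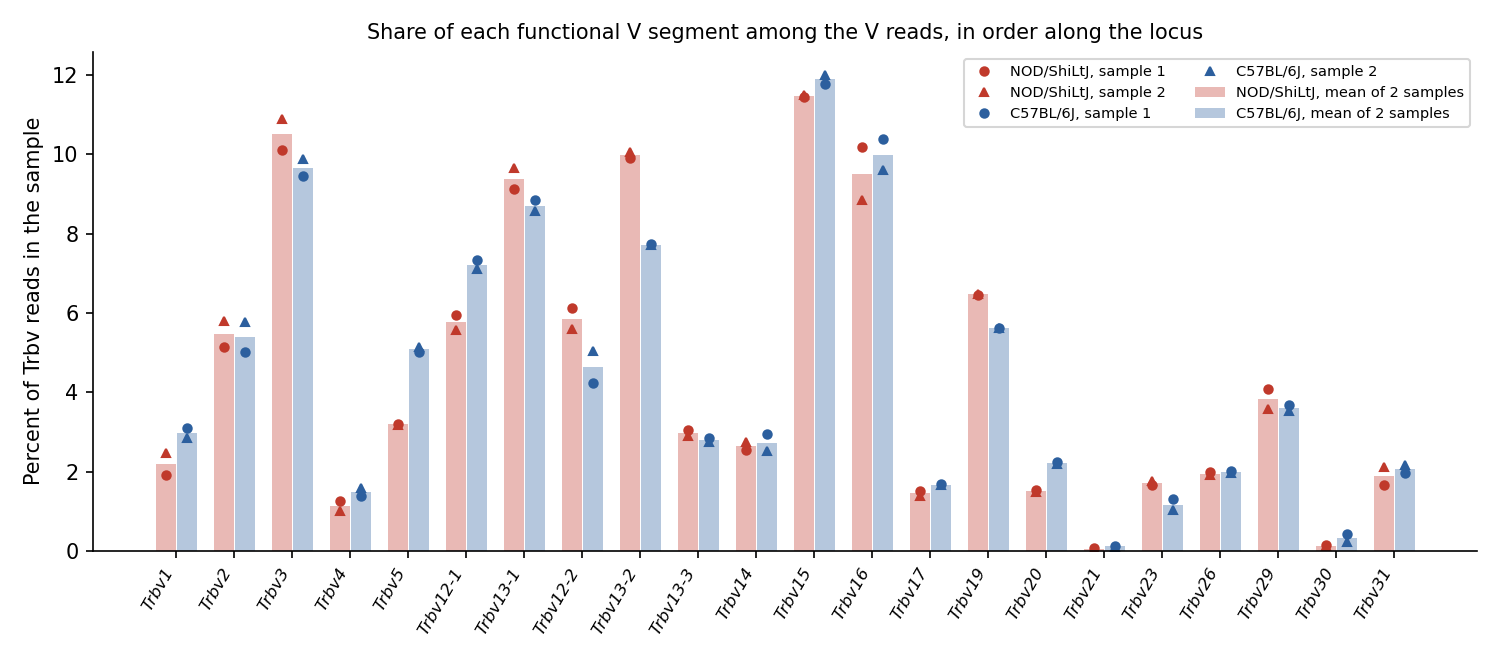
Share of each of the 22 V genes among all Trbv reads of a sample, in percent (y axis), in order along the locus (x axis). Red marks are the 2 NOD/ShiLtJ samples, blue marks the 2 C57BL/6J samples, and bars the mean of each strain. The order of the V genes is much alike in both strains, and the widest gap is at Trbv13-2, at 9.92% and 10.1% in NOD and 7.73% and 7.72% in C57BL/6J.

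Genes listed for the assembly and expression of the beta chain, regulators such as Runx1, Gata3 and Ctcf among them, did not pass the test. Of 29 listed, 0 were called in either direction by edgeR, with a median log2 fold change of -0.08, 4 had an unadjusted p under 0.05, and DESeq2 called 0. Over all tested genes, edgeR called 3.68% in either direction and 13.1% had an unadjusted p under 0.05. Rag1, the catalytic subunit of the recombinase, stood at 5983 ± 926 CPM in NOD and 8841 ± 354 CPM in C57BL/6J (SD, n = 2 samples each here and below; adjusted p = 0.217 in edgeR), and its partner Rag2 at 290 ± 1.33 CPM in NOD and 354 ± 3.33 CPM in C57BL/6J (adjusted p = 0.444 in edgeR). Dntt, the polymerase that adds untemplated bases at the joints, stood at 1419 ± 18.8 CPM in NOD and 1964 ± 168 CPM in C57BL/6J (adjusted p = 0.225 in edgeR). Ptcra, which pairs with the new beta chain, stood at 48.9 ± 1.11 CPM in NOD and 27.3 ± 9.02 CPM in C57BL/6J (adjusted p = 0.179 in edgeR). Cd3e, a signalling chain of the receptor complex, stood at 968 ± 61.4 CPM in NOD and 714 ± 70.7 CPM in C57BL/6J (adjusted p = 0.409 in edgeR). Genes that flank the segments were listed too, and 8 of the 17 matched passed the filter. None of those 8 was called by edgeR or DESeq2 or had an unadjusted p under 0.05, with Ephb6, a receptor gene beside the locus, at 209 ± 1.84 CPM in NOD and 178 ± 9.73 CPM in C57BL/6J.

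Markers of other cells that a sort could hold were low but not equal between strains. Over all tested genes, edgeR called 1.91% higher and 1.78% lower in NOD, and 13.1% had an unadjusted p under 0.05. The 7 myeloid and dendritic markers summed to 15.4 to 26.5 CPM in NOD libraries and to 8.66 to 11.3 CPM in C57BL/6J libraries, none was at 0, and Csf1r was called higher (3.61 CPM in NOD and 0.626 CPM in C57BL/6J, adjusted p = 0.0233 in edgeR). The 5 matched gamma-delta T cell markers summed to 48.9 to 132 CPM in NOD and to 58.5 to 89.7 CPM in C57BL/6J, and Tcrg-C4 was called higher (3.05 CPM in NOD and 0.456 CPM in C57BL/6J, adjusted p = 0.0398 in edgeR). The 5 double-negative thymocyte markers summed to 37.6 to 42.3 CPM in NOD and to 31.7 to 34.6 CPM in C57BL/6J. Of these, Cd44 was called higher (24.4 CPM in NOD and 11.8 CPM in C57BL/6J, adjusted p = 0.0474 in edgeR). The other 3 tested, Il2ra (11.3 CPM in NOD and 16.6 CPM in C57BL/6J), Kit and Hes1, had log2 fold changes of -0.60, -0.40 and -0.15 and were not called, and the list median was -0.27. The 6 mature single-positive markers summed to 113 to 131 CPM in NOD and to 144 to 164 CPM in C57BL/6J, where edgeR called 0, DESeq2 called 2 and 3 had an unadjusted p under 0.05. B cell, NK and NKT cell and thymic epithelial markers summed to at most 17.9 CPM in any library, with 0 called by either tool and 2 at an unadjusted p under 0.05. Pancreatic acinar markers summed to 0.0425 to 0.464 CPM in NOD and to 0 to 0.318 CPM in C57BL/6J. Fewer cells of a type and less RNA per cell cannot be told apart in these samples, and the part of these cells in the J values was not tested.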

How the data were processed

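Per the labels' protocols, live CD4+ CD8+ thymocytes were sorted with doublets gated out, and their total RNA went into stranded libraries read as pairs of 38 and 37 bases. The authors deposited 1 table of raw counts of reads per Ensembl gene for each of 8 libraries. The submitters' processing notes name GRCm38, STAR 2.5.0a and HTSeq 0.6.1. Annotation release, strand setting, overlap mode and duplicate handling are not given in the sources used here. GENCODE M21 (GRCm38) supplied symbols for 53360 of 53465 genes, gene types, exon lengths, coordinates and sequences. Reads that HTSeq assigned to no gene (39.98% to 59.1% of reads) and reads assigned to several genes were not used.

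Libraries of 1 strain with the same B number were added up, giving 4 samples of 23.8 to 55.6 M reads. edgeR 4.0.16 (R 4.3.3) kept genes with filterByExpr, scaled them by TMM and applied its robust quasi-likelihood test, two-sided, with strain in the model and 2 residual degrees of freedom. Calls needed a Benjamini-Hochberg adjusted p under 0.05 over all 17291 tested genes. V usage used the Trbv total of a sample as its library size. Alternatives used DESeq2 1.42.0 and limma 3.58.1. CPM is per M reads in genes, and summed class levels were described without a test. Libraries sharing a B number differed by more than sampling noise (chi-square per degree of freedom 2.96 to 61.2). That value cannot tell separate preparations from repeated sequencing of 1 library.

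The genes named are the C, D and J segments, called members and the 10 V genes with the highest mean CPM. Other V genes are named only in lists of non-overlapping libraries, as ends of a range or as the pseudogene with most reads, chosen after their values were seen. The members and lists were chosen with earlier results of these data known. Reads carried no molecular identifiers.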

Additional observations from a re-analysis of the deposited data

Results flagged for a closer look

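In 70 sets of 4 libraries (a strain's libraries for a class sum or a named segment), 2 held a library far from the other 3 by Dixon's test, and chance alone would flag about 1 in 20. For Trbv13-2, NOD library T1 of sample 2 stood at 49.2 CPM, below the other NOD libraries and above every C57BL/6J library. For Trbj1-1, NOD library T2 of sample 1 stood at 3.88 CPM, above the other NOD libraries at 3.00 to 3.06 CPM.

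Reads that HTSeq assigned to more than 1 gene, which enter no comparison, averaged 3.73% of reads in genes plus such reads in NOD libraries and 1.73% in C57BL/6J libraries. Every NOD library was above every C57BL/6J library, and the part of these reads in the segment values was not tested.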

How the results depend on the processing

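All alternatives kept the direction of Trbj1-1, Trbj2-1, Trbj2-4 and Trbj2-5. The number of members called higher, beside the share of all tested genes called higher, was 2 in edgeR with TMM (1.91%), 4 with DESeq2 (2.77%), 4 with no filter on low counts (1.84%), 4 with limma-voom on 8 libraries (2.14%, consensus correlation 0.443), 3 when scaled to the TCR beta total (2.05%), 1 with T1 libraries only (1.51%) and 0 with T2 libraries only (1.09%). Leaving out 1 sample gave 0 to 4 (0.643% to 3.88%). Scaled to the Trbj total it was 1 (1.38%), and 0 without C57BL/6J sample 1 (0.835%). The labels do not say whether the B numbers pair samples across strains. The deviations of NOD sample 1 and C57BL/6J sample 1 from their strain means correlated at -0.12 across genes. With 2 samples per strain, that value cannot settle the pairing. With the replicate block the number called higher was 1 (1.57%), since Trbj2-4 had an adjusted p of 0.0502 in edgeR. On the Trbv scale the replicate block called 0 members instead of 3. With the B numbers crossed, the number called higher with TMM was 4 (2.35%). The Trbj scaling and the crossed numbers were chosen after seeing the data. The count called lower was 0 throughout, as was the count of V segments in usage, for which the RLE alternative has no meaning. The cause of these shifts was not tested.

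Class sums were described as log2 ratios of NOD over C57BL/6J. As shares of the locus total, the V ratio was -0.00831, the D ratio -0.75 and the C ratio -0.0251. In CPM, the ratio over all samples was -0.539 for D, 0.581 for J, 0.151 for Trbj1 and 0.808 for Trbj2. Leaving out 1 sample moved the D ratio in CPM between -0.702 and -0.355 and the J ratio between 0.264 and 0.989. The Trbj1 ratio in CPM moved between -0.223 and 0.657 and the Trbj2 ratio between 0.529 and 1.15.

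Log2 fold changes near 0, none called, changed sign in places. With T1 libraries only, Trbv16 was at -0.0257, Trbc2 at -0.0740, Trbv15 at -0.130, Trbj1-5 at 0.0323 and Trbj2-6 at 0.169. With T2 libraries only, Trbj2-2 was at -0.0593, Trbj1-6 at -0.0825, Trbj1-3 at -0.208, Trbv12-1 at 0.0756 and Trbd1 at 0.160. Scaled to the locus total, which moves the median of all genes to -0.136, Trbj2-2 was at -0.00333, Trbv15 at -0.0588, Trbj1-3 at -0.0636, Trbv16 at -0.0800 and Trbc2 at -0.0823. Scaled to the Trbj total, Trbj1-7 was at -0.205, Trbj1-6 at -0.343, Trbj2-2 at -0.374 and Trbj1-3 at -0.445, and without C57BL/6J sample 1 as well at -0.541, -0.346, -0.370 and -0.394 in the same order. With TMM, leaving out 1 sample gave -0.495 to 0.338 for Trbj1-2, -0.126 to 0.391 for Trbj1-3, -0.535 to 0.0421 for Trbj1-4, -0.637 to 0.262 for Trbj1-5, -0.0838 to 0.545 for Trbj1-6, -0.278 to 1.15 for Trbj1-7, -0.107 to 0.507 for Trbj2-2 and -0.300 to 0.149 for Trbj2-6. It gave -0.0147 to 0.198 for Trbv15, -0.124 to 0.254 for Trbv16 and -0.0399 to 0.171 for Trbc2, and in V share -0.0784 to 0.121 for Trbv2 and -0.177 to 0.0273 for Trbv16.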
